A study of Homo sapiens with 12 samples.

Results

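Complement is a cascade of plasma and membrane proteins that tags and destroys targets, and 9 of its genes were followed here: C1R, C1S, C3, CFB, CFI, SERPING1, CD46, CD55 and CD59. They were taken by symbol from a table of 16383 genes, and C3 was chosen by its normalized counts, which differed between the 2 inhibitors of the study. Polyadenylated RNA was sequenced from IMR90, a human fibroblast line from lung, in 4 groups of 3 libraries: proliferating cells without treatment, and irradiated, senescent cells given DMSO (the solvent control), palbociclib or ruxolitinib. Palbociclib inhibits the cyclin-dependent kinases that open the cell cycle, and ruxolitinib inhibits the Janus kinases that pass on interferon and cytokine signals. The genotype was WT throughout. The irradiated cells received 20 Gy over 10 min, either inhibitor was given at 2 µM on days 4, 6, 8 and 10 after irradiation, and harvest was on day 11. The labels give no schedule for DMSO and no harvest day for the proliferating cells. The proliferating cells received neither radiation nor DMSO by the labels, so the effects of irradiation, solvent and time in culture cannot be told apart in that comparison.

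In the classical pathway C1q binds a target and switches on its partner proteases C1r and C1s, which start the cleavage steps that lead to the central component C3. The alternative pathway uses factor B, the product of CFB, to amplify C3 cleavage. SERPING1 encodes the C1 inhibitor, which shuts off C1r and C1s. Factor I, from CFI, cuts activated C3 fragments with the help of CD46, CD55 speeds the decay of the enzymes that cleave C3, and CD59 blocks the final membrane pore. The liver makes most plasma complement, but fibroblasts are known to make several components themselves, and interferons and inflammatory cytokines are known to raise C1R, C1S, C3, CFB and SERPING1 in many cell types.

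The levels are the authors' normalized counts, which are read counts per gene divided by a factor per library. Recovered reads per library ranged from 14106799 to 21762412 over the listed genes. Libraries carry the group and a number (A116 to A127) that no label ties to a replicate, and the labels do not say whether replicates were separate cultures, so p-values measure only the spread between these libraries, which may be technical. Of the 10 fibroblast markers listed, 10 had a mean of at least 10 normalized counts. Of 8 leukocyte markers 2 reached that mean, of 6 epithelial markers 1, of 5 endothelial markers 2 and of 5 hepatocyte markers 0. The summed leukocyte markers were 9.98 to 17.1 in proliferating, 49.7 to 60.4 in DMSO, 23.2 to 33.9 in palbociclib and 45.9 to 50.5 in ruxolitinib libraries, with AIF1 and TYROBP at 0 in every library, and their part in the results was not tested. AIF1 lies within 1000000 bases of CFB, in a stretch described below where levels near 0 could not be interpreted, so its 0 is not a reading of absence. The summed fibroblast markers were 822420 to 854897 in proliferating, 408919 to 419590 in DMSO, 651681 to 683887 in palbociclib and 515852 to 520021 in ruxolitinib libraries. The summed endothelial markers, nearly all TEK, were 1681 to 1949, 2389 to 2554, 3501 to 4380 and 2247 to 2254 in the same order, and the part of both sums in the results was not tested. In bulk RNA, fewer cells that express a gene and less of its RNA per cell cannot be told apart.

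The test covered the 11242 genes whose mean was at least 10. It used limma, a linear model with variances moderated across genes, on log2(normalized count + 1), and a gene was called at a Benjamini-Hochberg adjusted p under 0.05. Of the 9 complement genes, 7 passed this filter. The remaining pair, CFB and CFI, had at most 1 read in any library, 1 read in all for CFB and 4 for CFI. Because C3 was chosen for its difference between palbociclib and ruxolitinib, comparisons of C3 that involve either inhibitor are given as values without a test, as are all direct comparisons of palbociclib with ruxolitinib.

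The value of CFB could not be read as absence of its RNA. CFB lies at chr6:31946095-31952084 on the plus strand (RefSeq, GRCh38.p14), in the major histocompatibility complex. Within 1000000 bases of it, 77 of 88 protein-coding genes were listed, and 5 of these (6.49%) had a mean of at least 10 normalized counts, against 72.4% of all listed protein-coding genes. The median of those neighbours was 0. Genes that most cells use were nearly empty there: DDX39B, an RNA helicase, had a mean of 0.0964, CLIC1, a chloride channel protein, 1.15, and CSNK2B, a casein kinase subunit, 4.15 normalized counts. These 3 neighbours were chosen after their values were seen. The complement genes C2, C4A and C4B stand in the same stretch and had means of 0, 0.161 and 0. Levels of all 4 complement genes of the region are therefore listed near 0 without being interpretable, and the cause was not tested. CFB exons also overlap those of C2 and ENSG00000244255 on the same strand in GENCODE. The latter gene holds 90.8% of the 31-base words of the CFB transcript.

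**Figure D1:**
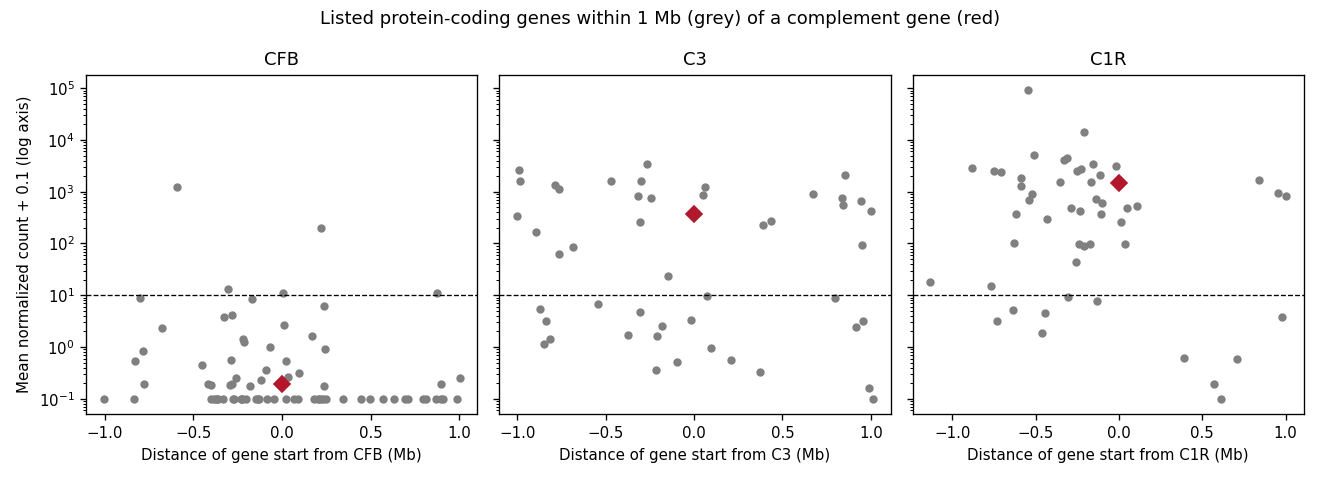
Mean normalized count over 12 libraries plus 0.1 (log axis) of listed protein-coding genes within 1 Mb of CFB, C3 and C1R, against the distance of gene starts in Mb; the red diamond is the complement gene itself and the dashed line the filter of 10. Only 5 of 77 neighbours of CFB reach the line, against 26 of 47 for C3 and 40 of 51 for C1R.

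CFI, at chr4:109730982-109801999 on the minus strand, stood among neighbours that were measured, since 10 of 12 listed genes around it (83.3%) had a mean of at least 10. It had no read in the DMSO libraries and 1, 1 and 2 reads in the proliferating, palbociclib and ruxolitinib groups. In the GENCODE annotation its exons overlap a read-through gene on the same strand, ENSG00000285330, which holds 78.7% of the 31-base words of the CFI transcript, so reads could have been split between the pair. No difference in CFI was detectable at this depth.

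Both C1 proteases fell with either inhibitor, and their libraries were lower with ruxolitinib than with palbociclib without overlap. C1S, but not C1R, rose after irradiation. C1R stood at 2043, 2287 and 2055 normalized counts in proliferating cells and at 1926, 1978 and 1887 with DMSO. Palbociclib libraries held 1106, 1206 and 1219, and ruxolitinib libraries 728, 721 and 700. No group overlapped another, and the order from low to high was ruxolitinib, palbociclib, DMSO and proliferating. Against DMSO, C1R changed by -0.71 on the log2 scale with palbociclib (SE 0.06, adjusted p 1.28e-07) and by -1.43 with ruxolitinib (SE 0.06, adjusted p 2.02e-10), which is 1.64-fold and 2.69-fold lower. Both inhibitors also left C1R below proliferating cells, by -0.85 (adjusted p 2.34e-09) and -1.57 (adjusted p 1.93e-12). The small step between DMSO and proliferating cells, -0.14 (SE 0.06, adjusted p 0.0441), was called only narrowly, and its sign turned at the same total (0.09), the same upper quartile (0.01) and under quantile normalization (0.03). The call was also lost in edgeR, in DESeq2 and without library A126, A116, A117 or A118.

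C1S, the protease that C1r activates, had 2347, 2440 and 2180 normalized counts in proliferating cells, and with DMSO the libraries held 4472, 4422 and 4225. With palbociclib the values were 3103, 3332 and 3427, and with ruxolitinib 2288, 2319 and 2306. Ruxolitinib libraries lay inside the range of the proliferating ones, and the other neighbouring groups did not overlap. C1S rose by 0.91 after irradiation (SE 0.05, adjusted p 4.42e-10). It fell by 0.41 with palbociclib (SE 0.05, adjusted p 1.73e-05) and by 0.92 with ruxolitinib (SE 0.05, adjusted p 8.69e-09), both on the log2 scale and against DMSO. With ruxolitinib the difference from proliferating cells was -0.01 (interval -0.12 to 0.10, adjusted p 0.882), and it turned to 0.19 at the same total, 0.16 at the same upper quartile and 0.17 under quantile normalization, all past the threshold. With palbociclib C1S stayed above proliferating cells by 0.50 (adjusted p 4.61e-07).

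The ratio of C1S to C1R was not computed under quantile normalization. Within a library it does not depend on a scaling by 1 factor per library. It was 1.15, 1.07 and 1.06 in proliferating libraries and 2.32, 2.24 and 2.24 with DMSO. It reached 2.81, 2.76 and 2.81 with palbociclib and 3.15, 3.21 and 3.29 with ruxolitinib. The 4 groups did not overlap. Per kb of the GENCODE canonical transcripts (2682 bases for C1S and 2488 for C1R) the mean ratio was 1.01 ± 0.0456 (SD, n = 3) in proliferating cells and 2.10 ± 0.0453 with DMSO, so the level of both RNAs per length was about equal in proliferating cells. With the inhibitors the ratio per length was 2.59 ± 0.0254 for palbociclib and 2.99 ± 0.0689 for ruxolitinib. The genes are neighbours at chr12:7060718-7071032 (C1S, plus strand) and chr12:7080219-7092445 (C1R, minus strand), 9.19 kb apart. Of the 31-base words of the C1R transcript 24.3% also occur in transcripts of the adjoining gene C1RL, and 0% of those of C1S occur in another gene, so by this measure the level of C1R is the less certain one. Exons of both genes overlap a protein-coding gene on the same strand, C1RL for C1R and ENSG00000290146 for C1S. C1RL itself rose after irradiation (0.80, adjusted p 2.21e-05) and was not called with either inhibitor against DMSO. It had 174.7 ± 27.3 normalized counts in proliferating cells, 302.1 ± 18.8 in the DMSO group, 301.0 ± 39.7 under palbociclib and 252.0 ± 18.1 under ruxolitinib.

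**Figure D2:**
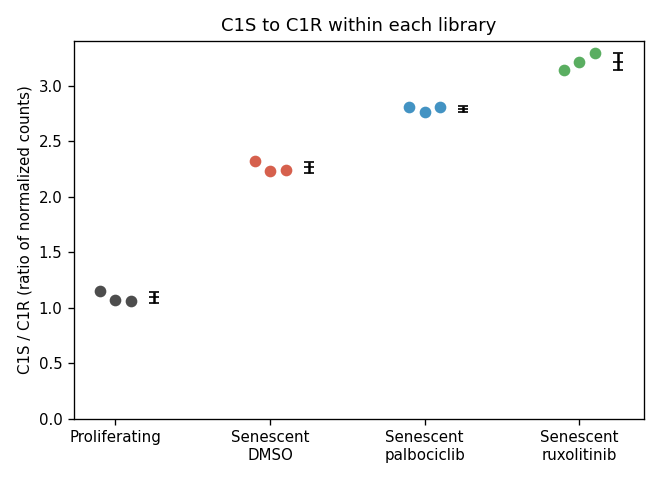
Ratio of C1S to C1R normalized counts in each of 12 libraries by group, with the group mean and SD beside the points. The ratio lies between 1.06 and 1.15 in proliferating libraries and between 3.15 and 3.29 with ruxolitinib.

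SERPING1, the inhibitor of both proteases (chr11:57597685-57614848, plus strand), rose with irradiation, and its difference from DMSO was not called with either inhibitor. It had 560, 506 and 502 normalized counts in proliferating cells and 976, 1000.3 and 1016 with DMSO, a rise of 0.93 (SE 0.07, adjusted p 4.88e-09). Palbociclib libraries held 994, 1164 and 1107 and overlapped those with DMSO (0.12, interval -0.02 to 0.27, adjusted p 0.147). This value reversed to -0.10 at the same total and was called, at 0.19, without library A119. Ruxolitinib libraries held 897, 855 and 888, all below those with DMSO, but the difference of -0.18 (interval -0.32 to -0.04) was not called (adjusted p 0.175). It was called when only the 2 groups were fitted. SERPING1 stayed above proliferating cells with palbociclib (1.06, adjusted p 9.27e-10) and with ruxolitinib (0.75, adjusted p 6.15e-08).

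C3, the component on which all activation routes converge (chr19:6677704-6720650, minus strand), rose the most of the 7 tested genes after irradiation. Proliferating libraries held 7.26, 18.9 and 10.5 normalized counts, or 7, 17 and 11 reads, and DMSO libraries 575, 717 and 747. The log2 fold change was 5.78 (SE 0.22, adjusted p 2.74e-12). It understates the linear change because the proliferating level was low, with a standard deviation of 49.1% of the mean there.

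With palbociclib C3 stood at 68.6, 65.7 and 70.2 normalized counts, 10.0% of the DMSO mean, and with ruxolitinib at 739, 642 and 722, 103.1% of it. The palbociclib libraries lay between the proliferating and the DMSO libraries and overlapped neither. Ruxolitinib and DMSO libraries overlapped. The log2 difference from DMSO was -3.29 with palbociclib and 0.05 with ruxolitinib. That between the inhibitors, on which C3 was chosen, was -3.34. The sign of the ruxolitinib value turned to -0.07 without library A116. These values describe C3 and are not tests. Over the 17 alternatives run on the same libraries, the difference of palbociclib from DMSO lay between -3.52 and -3.16, which is also a description.

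Of the 3 membrane regulators, CD46 and CD55 rose after irradiation, and CD46 and CD59 rose while CD55 fell with palbociclib. CD46 (chr1:207752038-207795516, plus strand) had 2572, 2526 and 2637 normalized counts in proliferating cells and 4778, 4906 and 4666 with DMSO, a rise of 0.89 (SE 0.05, adjusted p 1.07e-10). Palbociclib libraries held 5829, 5374 and 5466, all above those with DMSO, and ruxolitinib libraries 4916, 5121 and 5042. The palbociclib increase of 0.22 (SE 0.05, adjusted p 0.00143) was called on the authors' scaling but was lost at the same total (-0.01) and after quantile normalization (0.00078). The ruxolitinib difference of 0.07 (interval -0.03 to 0.17) was not called (adjusted p 0.515). CD46 exons overlap those of the non-coding gene MIR29B2CHG on the opposite strand, and 6.93% of its 31-base words occur in transcripts of other genes.

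CD55, which dissociates the C3-cleaving enzymes (chr1:207321678-207360966, plus strand, 391.1 kb from CD46), rose with irradiation and fell with palbociclib. Proliferating libraries held 656, 625 and 606 normalized counts, DMSO libraries 852, 949 and 924, palbociclib libraries 635, 692 and 664, and ruxolitinib libraries 816, 743 and 773. Palbociclib libraries overlapped proliferating ones, and ruxolitinib libraries lay between those with palbociclib and those with DMSO without overlap. The change was 0.53 after irradiation (SE 0.06, adjusted p 2.33e-06) and -0.45 with palbociclib (SE 0.06, adjusted p 4.32e-05). With ruxolitinib it was -0.22 (interval -0.36 to -0.09, adjusted p 0.0664), which missed the threshold and was called at the same total and when only the 2 groups were fitted. Compared with proliferating cells CD55 was 0.08 higher with palbociclib (interval -0.06 to 0.22, adjusted p 0.290), a difference that was called at the same upper quartile and under quantile normalization, and 0.30 higher with ruxolitinib (adjusted p 0.000572).

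CD59, the blocker of the membrane pore (chr11:33703010-33736479, minus strand), had the highest level of the 7 genes per length, at 2554 ± 37.7 normalized counts per kb in proliferating cells (SD, n = 3). C1S stood at 866 ± 49.2 per kb there, C1R at 855 ± 55.2, CD46 at 777 ± 16.7, SERPING1 at 286 ± 17.9, CD55 at 243 ± 9.75 and C3 at 2.33 ± 1.14. With ruxolitinib C3 reached 134.0 ± 9.91 per kb and was still the lowest of the 7, below C1R at 288 ± 5.76 and CD55 at 300.1 ± 14.1. CD59 held 19234, 19077 and 19630 normalized counts in proliferating, 18294, 19338 and 18132 in DMSO and 19485, 19719 and 19808 in ruxolitinib libraries. Palbociclib libraries, at 23802, 24831 and 23573, were above all others. CD59 was not called after irradiation (-0.06, interval -0.15 to 0.04, adjusted p 0.278), and its sign turned at the same total (0.17, where it was called), the same upper quartile (0.10) and under quantile normalization (0.07). It rose with palbociclib by 0.37 (SE 0.05, adjusted p 8.32e-06), a change that came to 0.15 at the same total and to 0.08, not called, under quantile normalization. The ruxolitinib difference was 0.08 (interval -0.01 to 0.18, adjusted p 0.414). Of the 31-base words of the CD59 transcript 8.14% occur in other genes, nearly all in ENSG00000284969, which overlaps it on the same strand.

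**Figure D3:**
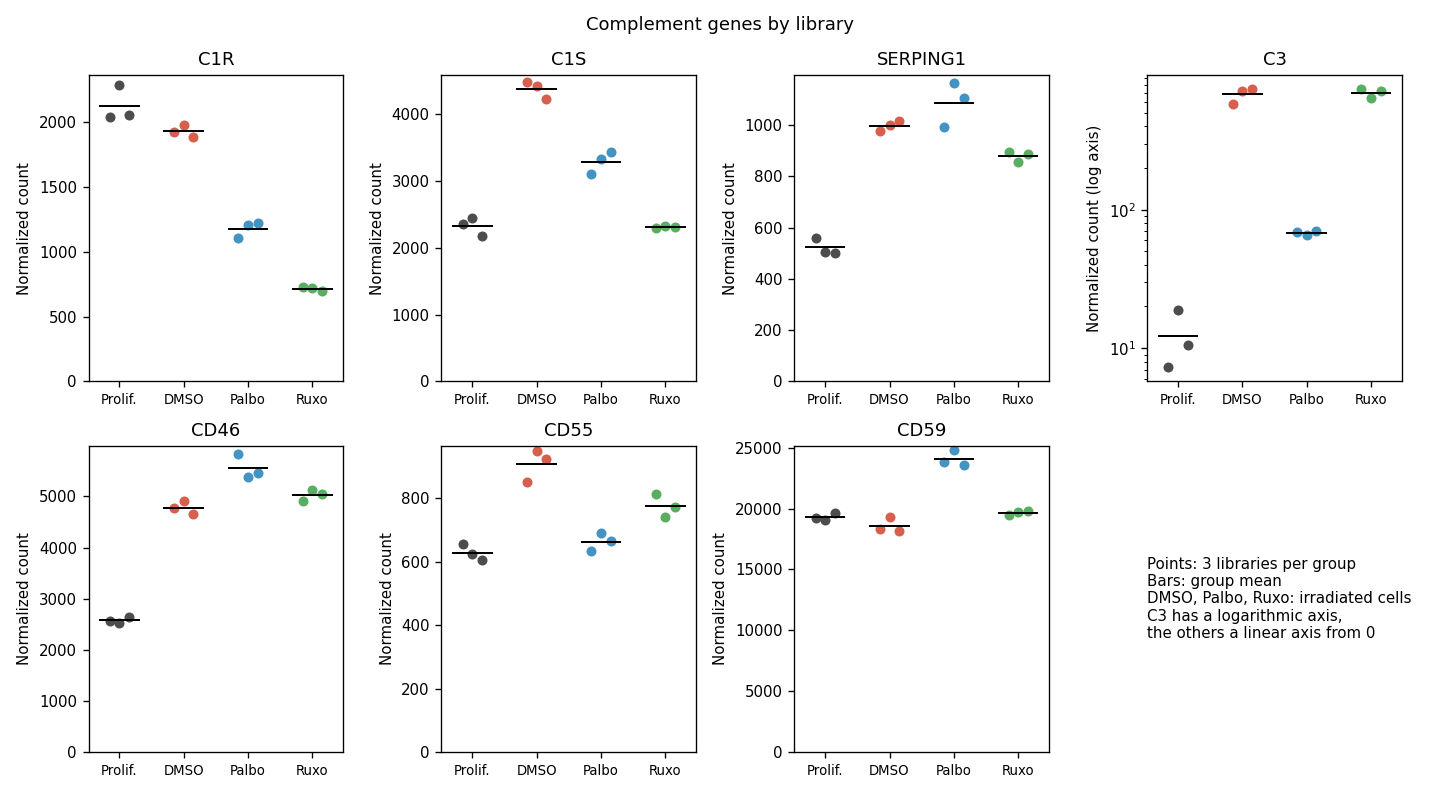
Normalized counts of the 7 tested complement genes in each of 12 libraries (points) with group means (bars), on linear axes from 0 and on a log axis for C3. C1R and C1S step down from DMSO to palbociclib to ruxolitinib, whereas C3 is low with palbociclib (65.7 to 70.2) and at the DMSO level with ruxolitinib (642 to 739).

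Counted over the tested genes, 5 rose after irradiation (C1S, C3, SERPING1, CD46 and CD55), 1 fell (C1R, the narrow call) and 1 was not called (CD59). Over all tested genes, 33.0% were called higher and 39.3% lower in this comparison, so 5 of 7 higher stands beside a background of 33.0%. The median log2 fold change was 0.89 over the 7 genes and -0.05 over all genes. With palbociclib, among the 6 genes other than C3, 2 rose (CD46 and CD59) and 3 fell (C1R, C1S and CD55), where 26.0% and 22.3% of all genes were called. Their median was -0.15, beside 0.02 over all genes. With ruxolitinib 0 rose and 2 fell (C1R and C1S), where 1.10% and 3.42% of all genes were called. Higher genes also numbered 0 at an unadjusted p under 0.05, in edgeR and in DESeq2. Lower genes numbered 4 at the unadjusted p in limma (C1R, C1S, SERPING1 and CD55) and 2 in each of edgeR and DESeq2. Calls over all genes at the unadjusted p were not counted. The median was -0.20 beside -0.0028 over all genes. Compared with proliferating cells, 4 of the 6 were higher and 1 lower with palbociclib (background 35.2% and 38.6%), and 3 were higher and 1 lower with ruxolitinib (background 32.6% and 39.5%). These comparisons share the DMSO or the proliferating libraries and are not independent of each other.

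Equal library totals moved the median gene by 0.23 in the irradiation comparison, by -0.23 in that of palbociclib with DMSO and by -0.03 in that of ruxolitinib with DMSO. The changes above are relative to the authors' scaling. Of all calls after irradiation 45.7% were higher on that scaling, 64.0% at equal totals, 58.1% at equal upper quartiles and 51.9% after quantile normalization. For palbociclib against DMSO these shares were 53.9%, 15.4%, 41.7% and 54.6%. The falls of C1R, C1S and CD55 with palbociclib became larger at the same total (-0.94, -0.64 and -0.68), and those of C1R and C1S with ruxolitinib hardly moved (-1.45 and -0.95).

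**Figure D4:**
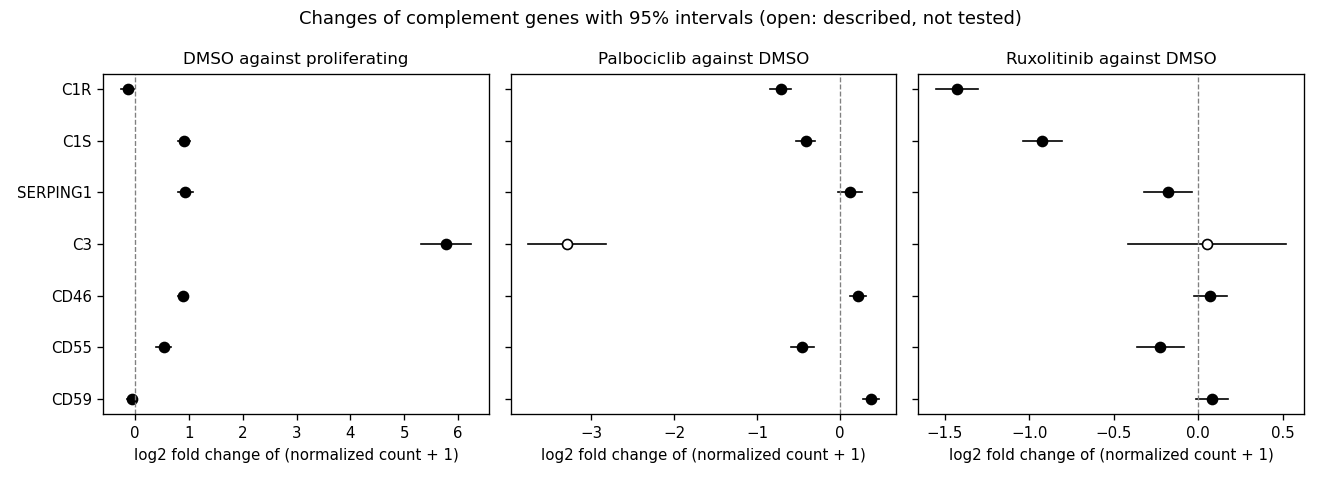
Log2 fold change of normalized count + 1 with 95% intervals for the 7 tested complement genes in 3 comparisons (horizontal axes differ between panels). Open circles mark C3 where it is described without a test. Its intervals there are no test either, because C3 was chosen on the inhibitor libraries. C1R lies at -0.71 with palbociclib and at -1.43 with ruxolitinib, and C3 at 5.78 after irradiation.

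Set side by side, palbociclib and ruxolitinib libraries did not overlap for any of the 6 tested genes other than C3, where 51.8% of all tested genes did not overlap. With equal totals 4 of the 6 did not, beside 57.1% of all genes, and after quantile normalization 4 of the 6, beside 47.7%. At the same concentration of 2 µM, C1R (log2 difference 0.71), C1S (0.51), SERPING1 (0.30), CD46 (0.14) and CD59 (0.29) were higher with palbociclib. CD55 (-0.23) and C3 (-3.34) were higher with ruxolitinib. The sign for CD46 turned with equal totals and with quantile normalization (-0.06 in each). At the same total C1R, C1S and SERPING1 differed by 0.51, 0.31 and 0.10. The difference of CD59 shrank to 0.09 at the same total and to 0.04 under quantile normalization.

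The upstream sequences of 3 genes are shown because C1R fell with the Janus kinase inhibitor while CD46 and CD59 were not called there. They come from RefSeq on GRCh38.p14, lie within the 250 bases before the RefSeq start, and leave out bases inside GENCODE exons. They span chr12:7092541-7092695 on the minus strand for C1R, chr1:207751788-207752036 on the plus strand for CD46 and chr11:33736480-33736729 on the minus strand for CD59, and are written 5′ to 3′. Capitals mark letters that match TTCNNNGAA, the palindrome to which STAT dimers are known to bind, or the core of the interferon-stimulated response element, taken as GAAA, any 2 bases and GAAA. Both were searched on both strands and could overlap.
C1R: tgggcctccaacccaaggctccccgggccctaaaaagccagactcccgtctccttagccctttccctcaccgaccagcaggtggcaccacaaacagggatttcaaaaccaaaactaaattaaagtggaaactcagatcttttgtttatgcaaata
CD46: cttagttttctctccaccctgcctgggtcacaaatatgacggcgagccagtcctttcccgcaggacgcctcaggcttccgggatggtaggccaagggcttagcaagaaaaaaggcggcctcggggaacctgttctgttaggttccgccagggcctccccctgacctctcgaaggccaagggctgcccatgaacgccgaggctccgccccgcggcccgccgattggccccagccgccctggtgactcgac
CD59: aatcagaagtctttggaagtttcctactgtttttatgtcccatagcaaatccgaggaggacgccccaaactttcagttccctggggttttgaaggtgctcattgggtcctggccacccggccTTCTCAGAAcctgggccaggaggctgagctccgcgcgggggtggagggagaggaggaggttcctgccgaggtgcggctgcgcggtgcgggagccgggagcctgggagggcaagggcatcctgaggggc

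The CD59 window held 1 match to TTCNNNGAA, as did 6.56% of 34943 RefSeq promoter windows of 250 bases, and no match to the response element core, which 3.02% held. Neither pattern occurred in the 155 bases shown for C1R, where 4.38% and 1.83% of windows of that length held them. Nor did either occur in the 249 bases shown for CD46 (6.55% and 2.98%). The C1R window ended 96 bases before the start, so the bases nearer the start were not searched. Those of CD46 and CD59 ended 2 and 1 bases before it, so the windows do not cover the same stretch. A match describes letters and not a bound site. Windows of CFB, CFI and CD55 were searched too and are not printed. The 130 bases of CFB, whose level is not interpretable here, held 1 match to the response element core, as did 1.57% of windows of that length, and none to TTCNNNGAA (3.70%). Neither pattern occurred in the 99 bases of CFI (2.86% and 1.19% of windows) or the 91 bases of CD55 (2.64% and 1.05%). No sequence was used here for C1S, C3 and SERPING1.

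The genes with the most similar patterns were found by the root mean square difference between centred log2 profiles over the 12 libraries, among 9243 genes with a mean of at least 100. For C1R they were GBP1 (0.167), IFI16 (0.245) and SOCS3 (0.259), and GBP1 had a mean of 1294 normalized counts in proliferating cells, 1376 after DMSO, 867 after palbociclib and 559 after ruxolitinib. For C1S they were LAP3 (0.151), SP100 (0.153) and PML (0.163). For C3 the nearest were PDE4C (0.519), GDF15 (0.532) and CXCL8 (0.618), over a profile that includes the inhibitor difference for which C3 was chosen. SERPING1 lay nearest to GRINA (0.0682), ELL2 (0.0722) and SLC31A2 (0.0773). CD46 was nearest to ERMAP (0.0334), GFPT1 (0.0411) and KIAA0319L (0.0412), CD55 to LRIF1 (0.0809), ADGRE5 (0.0812) and ZMYM6 (0.0884), and CD59 to HSBP1 (0.0335), SETD3 (0.0352) and IARS2 (0.0353). A flat profile gives small distances, so these values are not compared between the 7 genes as closeness of a relation.

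Of 49 other complement genes, all of them listed, 13 passed the filter and 7 had no read at all. The 36 genes below it included C1QA, C1QB and C1QC, which encode the C1q subunits, properdin (CFP, the highest of them at 9.49 normalized counts on average), CFD, C3AR1 and CR1. C2, C4A and C4B, whose levels near 0 could not be interpreted, were also among the 36, and C2 and C4B among the 7. Among the 13, 9 rose and 3 fell after irradiation (background 33.0% and 39.3%), with a median of 0.80 against -0.05 over all genes. This list too was chosen with earlier results of these data known, so its counts are a description. C7, a component of the membrane pore, rose from 18.9 ± 3.44 to 190.7 ± 26.7 normalized counts (SD, n = 3; log2 fold change 3.27, adjusted p 3.50e-11). CLU, a soluble inhibitor of pore assembly, rose from 3170 ± 368 to 5471 ± 71.9 (0.79, adjusted p 1.29e-07). C5, the precursor of the anaphylatoxin C5a, fell from 139.7 ± 12.5 to 71.2 ± 3.66 (-0.96, adjusted p 8.09e-06).

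With palbociclib 1 of these 13 rose and 4 fell (background 26.0% and 22.3%; median -0.0028, beside 0.02 over all genes). MASP1, a protease of the lectin pathway, rose from 261.9 ± 19.5 to 383 ± 13.7 normalized counts (0.55, adjusted p 0.00231). C5 fell to 52.2 ± 3.49 (-0.44, adjusted p 0.0122) and COLEC12, a scavenger receptor with a collectin domain, from 40.6 ± 4.91 to 11.5 ± 1.59 (-1.73, adjusted p 4.75e-06). With ruxolitinib limma called 0 of the 13 in either direction (background 1.10% higher and 3.42% lower; median -0.02, beside -0.0028 over all genes). At an unadjusted p under 0.05, 1 was higher (C7) and 3 lower, edgeR called 1 higher and 0 lower, and DESeq2 called 1 higher and 1 lower, with C7 the higher gene in each. No count over all genes at the unadjusted p was made. C7 stood at 270.0, 243 and 268 with ruxolitinib (0.46, limma adjusted p 0.133).

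**Figure D5:**
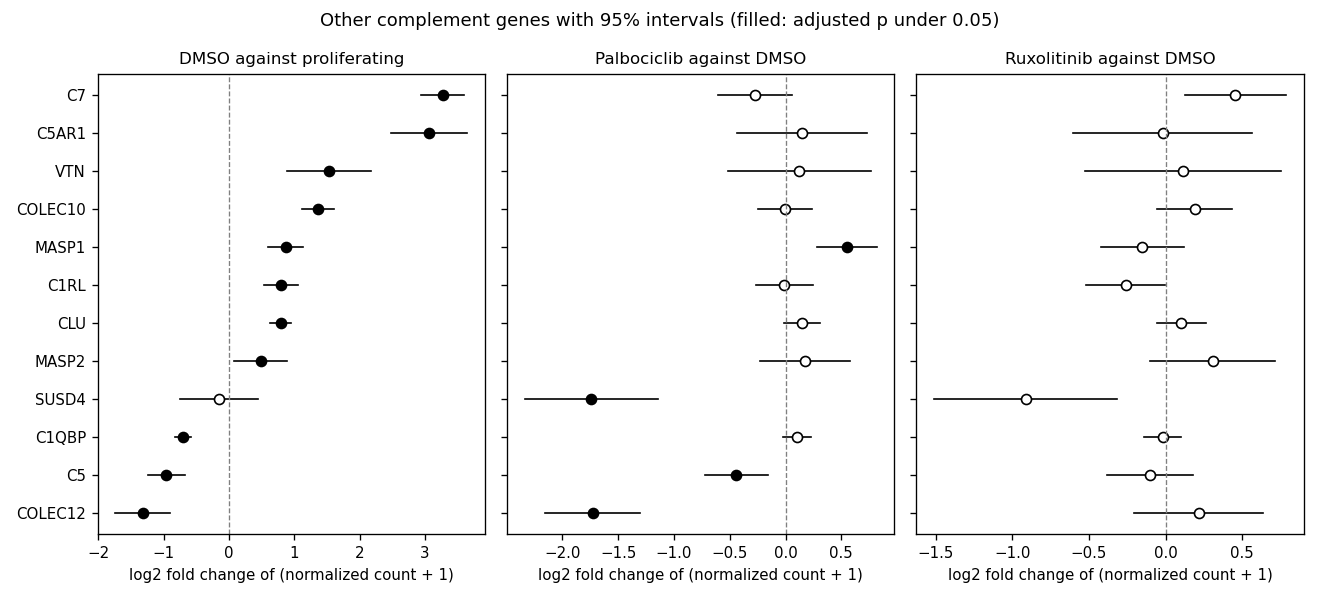
Log2 fold change of normalized count + 1 with 95% intervals for 12 of the 13 other complement genes that passed the filter, in 3 comparisons (horizontal axes differ between panels); filled circles have an adjusted p under 0.05. After irradiation 11 of the 12 are filled, with palbociclib 4 and with ruxolitinib 0.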

How the data were processed

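Polyadenylated RNA of 12 IMR90 libraries was measured. Values are the normalized counts that the authors deposited in 1 table, a signal that is never negative. The submitters' processing notes name Trimmomatic 0.38.1, HISAT2 2.2.1, featureCounts 2.0.3, DESeq2 2.11.40.8 and the build hg38, without roles. The annotation is not given in the sources used here. All 160380 values above 0 (100%) were whole multiples of a library's step within 0.01, and whole reads were recovered by dividing by it. No replicate pair agreed within counting noise (chi-square per degree of freedom 1.98 to 25.1). It was 2.95 to 17.1 in proliferating, 2.43 to 2.81 in DMSO, 6.43 to 25.1 in palbociclib and 1.98 to 2.76 in ruxolitinib pairs. The main fit shared 1 estimate of the spread per gene over the 4 groups, and the part of these differences in the calls was not tested. Tests used limma 3.58.1 in R 4.3.3 with a mean trend, 4 group means over 12 libraries and a pseudocount of 1, checked on simulated data. Alternatives used edgeR 4.0.16 and DESeq2 1.42.0 on the recovered reads, of which edgeR called 8150, 5374 and 556 genes after irradiation, with palbociclib and with ruxolitinib, beside 8134, 5432 and 508 with limma. With only the 2 groups compared in the fit, limma called 8134, 4951 and 1841 genes in the same order. Further alternatives were pseudocounts of 0.1 and 5, no filter or a mean of at least 50, 3 other scalings (equal totals, equal upper quartiles, quantile normalization), no trend, fits of only the 2 groups compared, each library left out in turn, an adjusted p under 0.01 and a fold of at least 2. Intervals are 95% limma intervals.

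The 9 genes and all lists were chosen with earlier results of these data known. Named genes are the 9, called genes of the wider list with a mean of at least 100 in their highest group, and the 3 most similar genes to each tested one. Outside this rule, DDX39B, CLIC1, CSNK2B, and the untested genes of the wider list were named after their values were seen. The values of 1 gene of the wider list are not reported here. The table ended at Entrez gene 140467, and genes of higher number were not analysed here.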

Additional observations from a re-analysis of the deposited data

How the results depend on the processing

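No paired analysis was possible because the columns carry no replicate numbers. Rises of C1S, C3, SERPING1, CD46 and CD55 after irradiation, and falls of C1R and C1S with either inhibitor and of CD55 with palbociclib, kept their direction and call under the 17 alternatives of pseudocount, filter, scaling, fit, test and left-out library run for each. The stricter thresholds were applied to counts of calls, and a fold of at least 2 ended many calls. The call of C1R as lower after irradiation did not: such calls numbered 0 at the same total, at the same upper quartile, under quantile normalization, without a trend, with only 2 groups fitted, in edgeR, in DESeq2, at an adjusted p under 0.01 and at a fold of at least 2, and 0 to 1 when a library was left out (0 without A126, A116, A117 or A118). C1R reversed to 0.090, 0.014 and 0.028 under the 3 scalings.

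Calls among the 9 genes also moved with a fold of at least 2, to 1 higher after irradiation, 0 higher and 0 lower with palbociclib, 1 lower with ruxolitinib, 2 higher and 0 lower for palbociclib against proliferating cells and 0 higher for ruxolitinib against them. Calls over all genes at that fold were not counted, so whether these moves are particular to the complement genes cannot be told. With palbociclib 1 gene was higher with equal totals and 0 with quantile normalization. Of all 11242 genes, 940 and 2726 were called higher there, beside 2927 in the main fit. With ruxolitinib 4 of the complement genes were lower when 2 groups were fitted, where 998 of 11242 genes were called lower, beside 384 in the main fit. Against proliferating cells 5 were higher with ruxolitinib under each of the 3 scalings. Of all genes, 5034 were called higher there with equal totals, 4771 with equal upper quartiles and 4249 with quantile normalization, beside 3670 in the main fit. Reversed values were, for C1S with ruxolitinib against proliferating cells, 0.19, 0.16 and 0.17 under the scalings in the same order, 0.027 without A126 (range -0.054 to 0.027 when a library was left out), 0.055 in edgeR and 0.054 in DESeq2. For CD59 after irradiation they were 0.17, 0.097 and 0.071, with 0.0059 in edgeR and 0.0065 in DESeq2. C3 with ruxolitinib gave -0.065 without A116 (range -0.065 to 0.12 when a library was left out). With palbociclib at the same total, SERPING1 gave -0.10 and CD46 -0.011, and CD46 between the inhibitors gave -0.058 there and -0.057 under quantile normalization.

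Of the other complement genes, without a filter 19 were higher after irradiation, 11 lower with palbociclib and 17 higher with ruxolitinib against proliferating cells. Of all 15125 genes fitted without a filter, 4640, 2799 and 4607 were called in the same directions. At a fold of at least 2 the calls among the other complement genes were 4 higher and 1 lower after irradiation, 0 higher and 2 lower with palbociclib, and 5 and 4 higher for palbociclib and ruxolitinib against proliferating cells. Here too, calls over all genes at that fold were not counted. With palbociclib 2 were higher under quantile normalization and 1 to 2 when a library was left out (2 without A119). Over all genes 2726 were higher under quantile normalization and 2991 without A119. With ruxolitinib 2 of the other complement genes were higher and 3 lower when 2 groups were fitted, 1 higher in edgeR, and 1 higher and 1 lower in DESeq2. Over all genes 843 were higher and 998 lower with 2 groups fitted, 153 and 403 in edgeR, and 199 and 449 in DESeq2. For scalings the cause of a move is their construction, and for the rest the cause was not tested. CFI is limited by its few reads, and CFB by the nearly empty region around it, whose cause was not tested.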
